A study of Mus musculus with 9 samples.

Results

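Long noncoding RNAs are transcripts that are not translated into protein, and 8 of them with well known names were followed across E18.5d, P1d and P7d mouse hearts: *Malat1*, *Neat1*, *Tug1*, *Miat*, *Gas5*, *Snhg1*, *Snhg12* and *Mir17hg*. They were chosen by name among the 48820 genes of the deposited table. Of the 8, 7 were found by symbol, and *Mir17hg* was found by its identifier (ENSMUSG00000089726) because its symbol field was empty. The hearts came from untreated wild-type C57BL/6J mice and were collected on embryonic day 18.5 (E18.5d) and on postnatal days 1 (P1d) and 7 (P7d), with 3 hearts per stage and 9 in all. Every heart was labelled male. Levels are given in FPKM (fragments per kilobase of transcript, scaled to the mapped fragments of the heart), and those of different genes are set side by side. The gene lengths behind them are not given in the sources used here, so the order of genes at close levels may depend on them.

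These RNAs work in different ways. *Malat1* is a very abundant RNA held in nuclear speckles, the stores of splicing factors. *Neat1* is the scaffold around which paraspeckles, another kind of nuclear body, are built. *Tug1* and *Miat* are RNAs studied in retina, vasculature and heart, and *Miat* was first described in connection with myocardial infarction. *Gas5*, *Snhg1* and *Snhg12* are small nucleolar RNA (snoRNA) host genes: their introns hold snoRNAs that guide chemical modification of ribosomal RNA, while the spliced exons are short-lived and are degraded by nonsense-mediated decay. *Mir17hg* is the primary transcript of the miR-17-92 microRNA cluster, which favours proliferation and is required for normal heart and lung growth.

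On the GRCm38 genome with GENCODE M21 gene models, *Malat1* (chr19:5795690-5802672, minus strand) and *Neat1* (chr19:5824708-5845478, minus strand) are neighbours without introns in their main forms. *Malat1* and the long form of *Neat1* (20771 bases) end in a stretch that folds into a triple helix and replaces a poly(A) tail. This stretch is shown because it is what the pair shares in sequence. Within the last 420 bases of each transcript, 3 runs of at least 10 bases were common to both, of 13, 16 and 11 bases, in the same order. They are in capitals below, from chr19:5795982-5796065 for *Malat1*, where 292 further bases follow to the annotated end, and from chr19:5824708-5824797 for *Neat1*, where they reach the end itself.
Malat1: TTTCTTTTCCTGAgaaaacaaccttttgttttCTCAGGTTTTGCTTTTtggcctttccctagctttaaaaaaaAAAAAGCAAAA
Neat1: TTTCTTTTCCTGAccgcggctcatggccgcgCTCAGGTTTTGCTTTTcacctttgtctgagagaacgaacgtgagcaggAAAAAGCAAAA

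The snoRNA host genes are known for starts of the 5′ terminal oligopyrimidine kind, a C at the first transcribed base followed by an unbroken run of C and T. They share this kind with ribosomal protein genes. The RefSeq start windows (GRCm38.p6) of the 3 host genes are shown from 30 bases before the start, with the leading run in capitals, since they are what the 3 may share. They lie at chr1:161035136-161035195 for the downstream of 2 *Gas5* starts, at chr19:8723457-8723516 for *Snhg1* and at chr4:132308648-132308707 for *Snhg12*, all on the plus strand.
Gas5: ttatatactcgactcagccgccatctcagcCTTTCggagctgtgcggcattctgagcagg
Snhg1: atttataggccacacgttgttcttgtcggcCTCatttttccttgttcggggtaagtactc
Snhg12: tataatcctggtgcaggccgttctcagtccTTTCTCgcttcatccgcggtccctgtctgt

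The run was 5 bases long in *Gas5*, 3 in *Snhg1* and 6 in *Snhg12*, and 0 at the upstream *Gas5* start. A run of at least 5 bases opened 1457 of all 32851 RefSeq start windows (4.44%). Runs were counted whether they began with C or T, and that of *Snhg12* began with T. They are thus looser than the kind named above, and only describe the letters in these windows.

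*Mir17hg* (chr14:115042879-115046727, plus strand) holds 6 microRNA precursors. The best known mature forms are shown with the seed, bases 2 to 8, in capitals, since the seed sets which messages a microRNA can bind. miR-17-5p and miR-20a-5p share a seed, as do miR-19a-3p and miR-19b-3p, so the 6 sequences hold 4 seeds.
miR-17-5p: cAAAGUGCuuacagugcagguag
miR-20a-5p: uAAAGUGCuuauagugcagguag
miR-18a-5p: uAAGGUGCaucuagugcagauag
miR-19a-3p: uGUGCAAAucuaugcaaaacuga
miR-19b-3p: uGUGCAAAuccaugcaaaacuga
miR-92a-3p: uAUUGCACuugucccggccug

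Several facts about the hearts bear on what follows. The table gives no depth, and the steps between low FPKM values gave an estimate of 25.75 to 45.5 × 1e6 fragments per heart. *Xist*, the RNA that coats the silenced X chromosome of female cells, lay between 58.03 and 97.03 FPKM in 4 of the hearts labelled male (E18.5d replicates 1 and 3, P7d replicates 2 and 3) and between 0.02 and 0.11 FPKM in the other 5, which include all P1d hearts. The airway genes *Scgb3a1*, *Scgb3a2* and *Reg3g* summed to 97.1, 272 and 524 FPKM in E18.5d replicates 1 and 2 and P1d replicate 1, and to 3.29 or less in the other 6 hearts. Cardiomyocyte markers summed to 36100 to 45100 FPKM in every heart. From E18.5d to P1d to P7d, endothelial markers summed to 423 to 457, 501 to 547 and 562 to 580 FPKM, fibroblast markers to 2040 to 2140, 1710 to 2280 and 2750 to 2830, macrophage markers to 54.6 to 69.5, 72.9 to 106 and 73.6 to 79.5, and smooth muscle and pericyte markers to 794 to 983, 814 to 898 and 738 to 845. Erythroid markers, globins among them, summed to 8420 to 22700, 12700 to 24700 and 8550 to 10400 FPKM, and markers of airway, lung, brown fat, liver and thyroid to 22.9 to 287, 39.2 to 561 and 38.2 to 42.5 FPKM. No marker in these lists was at 0 in all hearts. Their part in the results was not tested, and in whole hearts fewer cells of a type and less RNA per cell cannot be told apart.

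The levels of the 8 RNAs differed widely. At E18.5d *Malat1* led with a mean of 7661 FPKM, followed by *Gas5* (97.1), *Tug1* (36.9), *Snhg1* (35.6), *Snhg12* (14.2), *Neat1* (7.68), *Mir17hg* (2.01) and *Miat* (0.0667). Only *Tug1* and *Snhg1* were neighbours whose hearts overlapped. At P1d *Snhg1* (42.02) stood above *Tug1* (25.0), and the hearts of *Tug1* overlapped those of *Snhg12* (17.3), which in turn overlapped those of *Neat1* (16.88). By P7d *Neat1* (22.1) had passed *Snhg1* (15.7) and *Snhg12* (6.91) to stand beside *Tug1* (22.4), whose hearts it overlapped. The order and the overlapping pairs were the same at all 3 stages when the columns were rescaled by median of ratios or to an equal sum over protein-coding nuclear genes. Both divide all genes of a heart by the same factor, which cannot reorder genes within a heart. This sameness is therefore no test of the order.

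**Figure D1:**
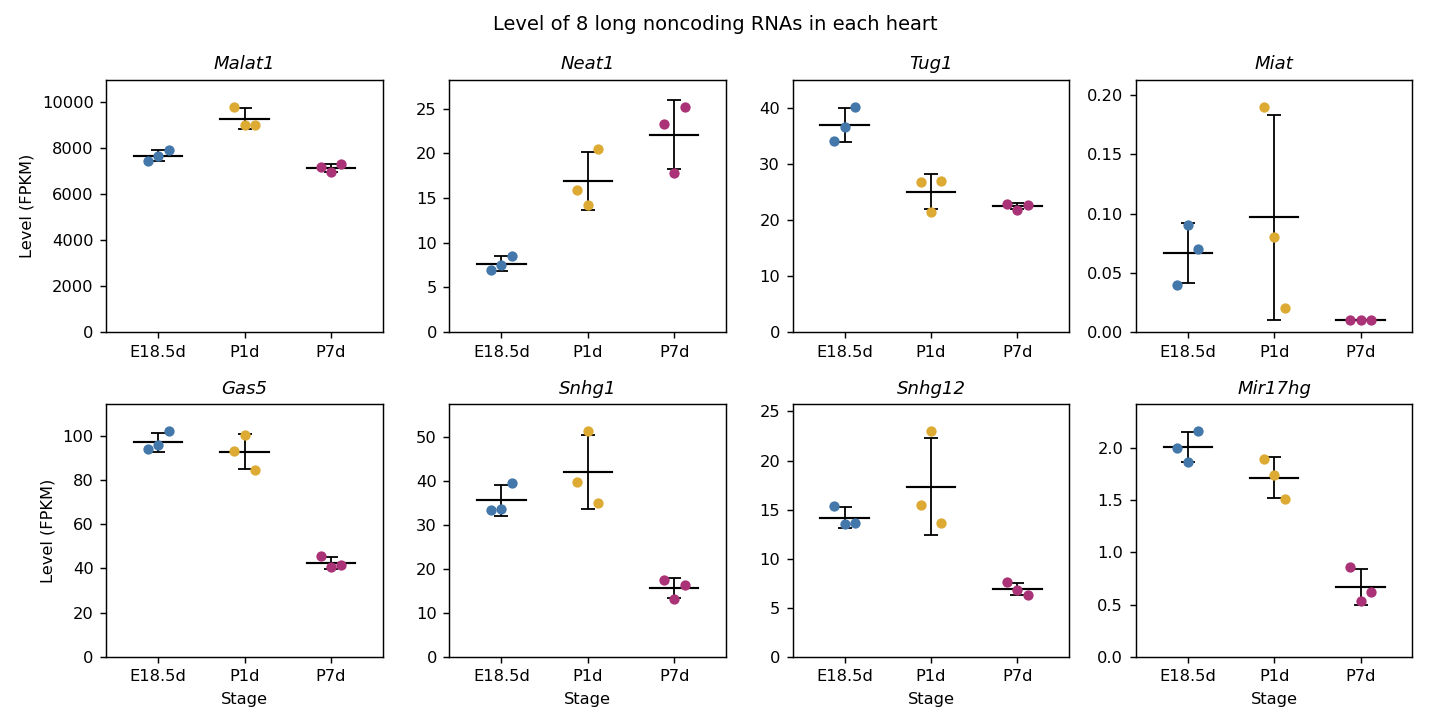
FPKM (vertical axis, linear from 0, scaled separately in each panel) of each RNA by stage. Points are hearts, 3 per stage, horizontal lines are means and bars are 1 SD. *Neat1* was higher in all P1d and P7d hearts than in any E18.5d heart, and *Gas5*, *Snhg1*, *Snhg12* and *Mir17hg* were lower in all P7d hearts than in any earlier heart.

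*Malat1* changed little for its abundance. Its level was 7413, 7647 and 7924 FPKM in the E18.5d hearts, 9777, 8999 and 8976 FPKM at P1d, and 7167, 6937 and 7283 FPKM at P7d. The P1d hearts were above all others, and the P7d hearts were all below the E18.5d hearts. On the log2(FPKM + 1) scale, the P1d hearts were 0.27 ± 0.08 (SE) higher than the E18.5d hearts (limma adjusted p = 0.0167), and the P7d hearts were lower than the P1d hearts by a change of -0.375 ± 0.08 (limma adjusted p = 0.00374). Between E18.5d and P7d the difference was -0.10 ± 0.08 and did not pass the test (limma adjusted p = 0.286). *Malat1* took 0.456% to 0.685% of the summed FPKM of a heart, and its changes moved with the scale of the columns: the rise at P1d was 0.05 after quantile normalization and 0.34 by median of ratios, and the sign of the difference between E18.5d and P7d turned to 0.08 by median of ratios. By quantile normalization the P7d hearts were also called lower than the E18.5d hearts (-0.27, limma adjusted p = 0.0369, range over the alternatives 0.0369 to 0.843). The fall from P1d to P7d was not called with an equal sum over all genes (limma adjusted p = 0.134), without a filter (0.123) or in the 5 hearts without *Xist* (0.308), and was called under the other 20 of 23 alternatives (range 0.00191 to 0.308). The rise at P1d was called under only 12 of 23 alternatives (range of limma adjusted p 0.00603 to 0.655). Its call was lost without a filter (0.253), with an equal sum over all genes (0.515) or without 5 structural RNAs (0.062), by quantile normalization (0.655), with only the compared stages in the fit (0.0605) and with an *Xist* covariate (0.085). It was also lost without E18.5d replicate 1, E18.5d replicate 2 or P1d replicate 1 (limma adjusted p = 0.0573, 0.0579 and 0.0519), and in both sets of hearts described at the end.

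*Neat1* rose after birth. Its level was 6.95, 7.53 and 8.56 FPKM in the E18.5d hearts, 15.9, 14.2 and 20.5 FPKM at P1d, and 23.25, 17.8 and 25.2 FPKM at P7d. No E18.5d heart reached the lowest postnatal heart, while the P1d and P7d hearts overlapped. Over the 3 stages the means were 7.68 ± 0.815, 16.88 ± 3.26 and 22.08 ± 3.85 FPKM (SD, n = 3 each), the last being 2.88 times the first. These differences were 1.03 ± 0.15 and 1.40 ± 0.15 on the log2 scale (limma adjusted p = 0.00057 and 8.99e-05), and stayed between 0.87 and 1.09, and between 1.36 and 1.57, under the rescalings tried. The difference between P1d and P7d was 0.37 ± 0.15 and did not pass the test (limma adjusted p = 0.0764, range over the alternatives 0.0186 to 0.262). It did pass without P1d replicate 3 (0.51, limma adjusted p = 0.0204), without P7d replicate 2 (0.51, limma adjusted p = 0.027) and under 4 of the 5 rescalings. *Neat1* has a short form, made in most cells, and a long form, needed for paraspeckles, that share their start, and the single value per gene does not separate them.

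*Tug1* fell. Its level was 34.1, 36.5 and 40.2 FPKM in the E18.5d hearts, 26.7, 21.5 and 26.9 FPKM at P1d, and 22.9, 21.9 and 22.6 FPKM at P7d. Every postnatal heart was below every E18.5d heart, and P1d and P7d hearts overlapped. The change was -0.55 ± 0.09 from E18.5d to P1d and -0.69 ± 0.09 from E18.5d to P7d on the log2 scale (limma adjusted p = 0.00127 and 0.00031), so that the mean fell by 39.2% over the whole interval. From P1d to P7d the difference was -0.14 ± 0.09 (limma adjusted p = 0.238, range over the alternatives 0.0267 to 0.984). Without P1d replicate 2, the lowest heart of the series, that difference was -0.25 (limma adjusted p = 0.0267), and it was 0.0035 after rescaling to protein-coding nuclear genes. *Tug1* (chr11:3639785-3649673, minus strand) shares 483 exon bases with *Morc2a* on the opposite strand, and since the sources used here do not say that counting used strand, reads there cannot be assigned to either gene. *Morc2a* was at 14.3 to 19.4 FPKM in all hearts.

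*Miat* was barely present. It was at 0.04, 0.09 and 0.07 FPKM at E18.5d, 0.19, 0.08 and 0.02 FPKM at P1d and 0.01 FPKM in each P7d heart. The exon length is 9293 bases, from which the depth estimate takes off 296 to 328 bases per heart. With that length and the estimated depth, these values stand for about 3.28 to 49.4 fragments. The P1d hearts reached below and above all E18.5d hearts, and each P7d heart was near the value of 3 fragments (0.00734 to 0.00916 FPKM). *Miat* did not reach the mean of 1 FPKM required for testing and has no fold change or p from the main fit. It was the only RNA of the 8 left out of that fit.

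*Gas5*, *Snhg1* and *Snhg12* had a like course: no change past the test from E18.5d to P1d, and then a fall. *Gas5* (chr1:161034422-161038539, plus strand) was at 93.8, 95.6 and 102 FPKM at E18.5d, 93.0, 100 and 84.5 FPKM at P1d, and 45.4, 40.4 and 41.6 FPKM at P7d. The first 2 stages overlapped and no P7d heart came near them. The change from P1d to P7d was -1.11 ± 0.08 on the log2 scale (limma adjusted p = 1.41e-05), with the smallest standard error of the 7 tested RNAs.

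*Snhg1* (chr19:8723475-8726443, plus strand) was at 33.5, 33.7 and 39.65 FPKM at E18.5d, 39.8, 51.3 and 34.9 FPKM at P1d, and 17.4, 13.2 and 16.4 FPKM at P7d. P1d replicate 2 was the highest of the 9 hearts, and the same heart held the highest *Snhg12* level. The fall from P1d to P7d was the steepest of the 7 tested RNAs on the log2(FPKM + 1) scale, -1.36 ± 0.145 (limma adjusted p = 0.000123). *Snhg12* (chr4:132308623-132311024, plus strand) was at 15.4, 13.5 and 13.6 FPKM at E18.5d, 15.4, 23.0 and 13.6 FPKM at P1d, and 7.58, 6.83 and 6.31 FPKM at P7d. Its change from P1d to P7d was -1.18 ± 0.16 (limma adjusted p = 0.000408). P1d replicate 2 also had the highest share of structural RNA, 62.3% of summed FPKM against 53.3% to 59.3% in the others. Without that heart the calls of both falls remained. From P1d to P7d, when the 3 host RNAs fell, the summed erythroid markers were also lower in every P7d heart than in any P1d heart, with a median log2 change of -0.73 over 7 markers, of which 2 fell and 0 rose past the test. The other-tissue markers had a median of -1.46 over 8 tested, with 1 higher and 1 lower. Their part in the falls was not tested.

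From E18.5d to P7d the mean of *Gas5* fell by 56.3%, that of *Snhg1* fell by 56.0% and that of *Snhg12* fell by 51.2%. On the log2 scale these were changes of -1.175 ± 0.08, -1.14 ± 0.145 and -0.94 ± 0.16 (limma adjusted p = 3.8e-06, 0.00022 and 0.00114). From E18.5d to P1d none of the 3 passed the test, with differences of -0.07, 0.22 and 0.24 (limma adjusted p = 0.476, 0.242 and 0.238). The sign of the *Gas5* difference at P1d depended on the scale, 0.00048 by median of ratios. *Gas5* and *Snhg1* have 25 and 18 annotated transcripts, and the exons of *Snhg1* transcripts together cover its whole span, so that 1 FPKM per gene does not separate spliced from unspliced RNA. The annotation places 10, 8 and 5 snoRNA genes inside *Gas5*, *Snhg1* and *Snhg12*, and all of them were listed at 0 in every heart, so the guides themselves were not measured.

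*Mir17hg* also fell late. It was at 2.00, 1.87 and 2.16 FPKM at E18.5d, 1.90, 1.74 and 1.51 FPKM at P1d, and 0.86, 0.53 and 0.62 FPKM at P7d, which stand for about 71.0 to 228 fragments. The E18.5d and P1d hearts overlapped only at 1.87 to 1.90 FPKM, and the P7d hearts were all below them. The change from E18.5d to P1d was -0.15 ± 0.12 on the log2 scale and did not pass the test (limma adjusted p = 0.319). From P1d to P7d it was -0.70 ± 0.12 and from E18.5d to P7d -0.85 ± 0.12 (limma adjusted p = 0.00123 and 0.000328). *Mir17hg* passed the filter with a mean of 1.47 FPKM over all hearts, and did so through the earlier stages, since its P7d mean was 0.67 FPKM. Both falls were also called without a filter (limma adjusted p = 0.00301 and 0.000968). At this low level the added 1 FPKM shrinks the change: the ratio of the means was 0.333 between P7d and E18.5d. The 6 precursors inside it were listed at 0 in every heart, so that the host transcript says nothing on the mature microRNAs.

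Counted by comparison, 2 of the 7 tested RNAs (*Malat1* and *Neat1*) rose and 1 (*Tug1*) fell from E18.5d to P1d. Of all 13618 genes tested, 46.0% were called in that comparison, 18.4% higher and 27.6% lower. Against P1d, 0 of the 7 were higher and 5 lower at P7d (*Malat1*, *Gas5*, *Snhg1*, *Snhg12* and *Mir17hg*), where 44.2% of all genes were called, 15.5% higher and 28.6% lower. The 0 refers to limma at an adjusted p, and *Neat1* had an unadjusted p of 0.0374. Against E18.5d, 1 was higher (*Neat1*) and 5 lower (*Tug1*, *Gas5*, *Snhg1*, *Snhg12* and *Mir17hg*) at P7d, beside 49.4% of all genes called, 12.5% higher and 36.9% lower. With so many genes called, the counts only describe these RNAs. *Mir17hg* is counted among them though its P7d mean lay below the filter. In each of the 14 calls the hearts of the stages compared did not overlap. The share of all tested genes with hearts apart was not counted, so this too only describes these RNAs. The median of all tested genes was -0.06, -0.09 and -0.17 on the log2 scale in the 3 comparisons, and 0.00, 0.00 and -0.02 by median of ratios. That scaling splits the calls into 3154 higher and 3112 lower at P1d, 2986 and 2700 at P7d against P1d, and 2905 and 2848 at P7d against E18.5d, and adds *Neat1* to the members called higher at P7d against P1d. All 14 calls kept their direction under each rescaling.

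**Figure D2:**
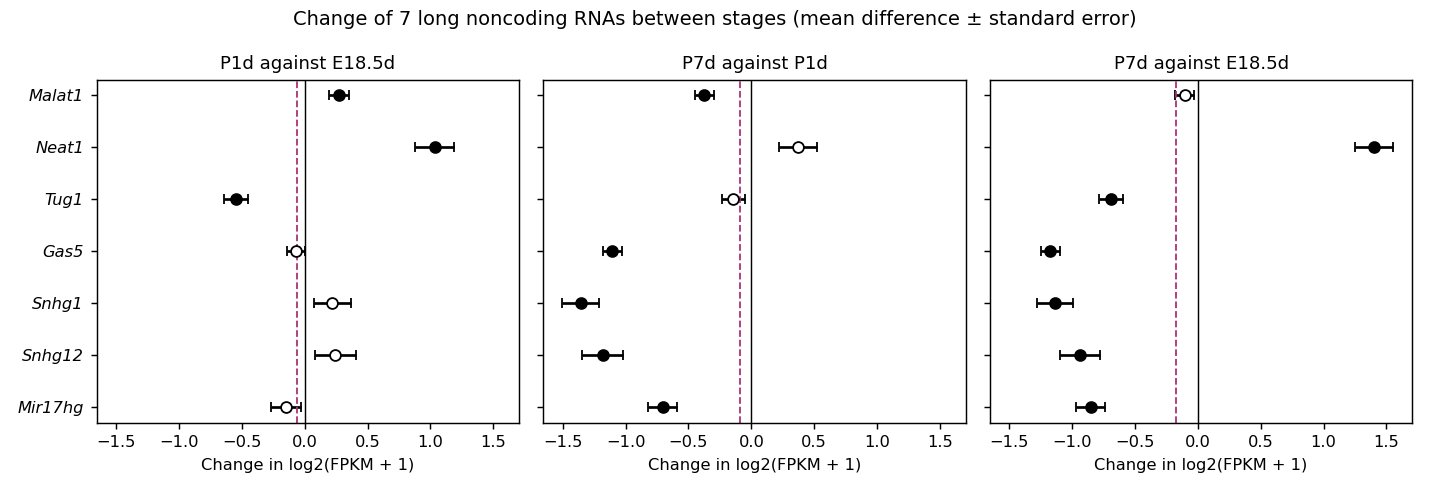
Change in log2(FPKM + 1) (horizontal axis) of the 7 tested RNAs in the 3 comparisons, as points with bars of 1 standard error from limma. Filled points passed an adjusted p of 0.05, open points did not, and the dashed line is the median of all 13618 tested genes. *Neat1* stands to the right, and *Gas5*, *Snhg1*, *Snhg12* and *Mir17hg* to the left wherever P7d is compared.

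Long noncoding genes as a kind gave a closer background, from which the 7 tested members were not taken out. Of the 588 that were tested, 116 rose and 119 fell from E18.5d to P1d, 53 rose and 197 fell from P1d to P7d, and 50 rose and 187 fell from E18.5d to P7d (72 and 123 by median of ratios). The annotation marks 61 of them as hosts of small RNAs. Among these hosts 2 rose and 30 fell (49.2%) from P1d to P7d, beside 33.5% lower among all long noncoding genes. By median of ratios these shares were 45.9% and 26.7%.

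The other noncoding snoRNA host genes were described from a list of 18, of which 14 were found by name and 12 were tested. At P7d against P1d, 9 were lower, 0 higher and 3 passed in neither direction, with a median of -0.79, beside -0.09 for all genes. The largest falls with hearts apart were *Rab26os* (means of 15.5 ± 6.30, 17.6 ± 6.61 and 4.51 ± 2.51 FPKM over the 3 stages, log2 change -1.82 ± 0.42 from P1d to P7d) and *Zfas1* (18.3, 32.6 and 10.2 FPKM, log2 change -1.57 ± 0.17). Against E18.5d, 8 of the 12 were lower at P7d and 0 were higher, or 6 and 0 by median of ratios. Of all genes, 36.9% were lower in that comparison, or 20.9% by median of ratios. The host genes that fell were led by *Rab26os* (-1.635) and *Snhg6* (-1.15). The limma adjusted p values for these falls were 0.00684 and 0.000126 against P1d and 0.00984 and 7.07e-05 against E18.5d. *Snhg14* (-0.46) and *Snhg15* (-0.13) did not pass between P1d and P7d.

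Some hosts rose first. Between E18.5d and P1d, 3 of the 12 rose, *Epb41l4aos* (0.98 ± 0.24), *Zfas1* (0.78 ± 0.17) and *Snhg3* (0.56), with limma adjusted p = 0.00887, 0.00459 and 0.0223. The median of the list was 0.15. *Snhg17* was lower (-0.32, limma adjusted p = 0.0497) and its hearts overlapped, and by median of ratios it was not called (limma adjusted p = 0.108). *Zfas1* went from 17.4 to 19.4 FPKM at E18.5d to 25.97 to 41.45 FPKM at P1d, and then to 8.06 to 11.52 FPKM at P7d, so that no pair of stages overlapped. *Gas5*, *Snhg1* and *Snhg12* did not show such a rise past the test.

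**Figure D3:**
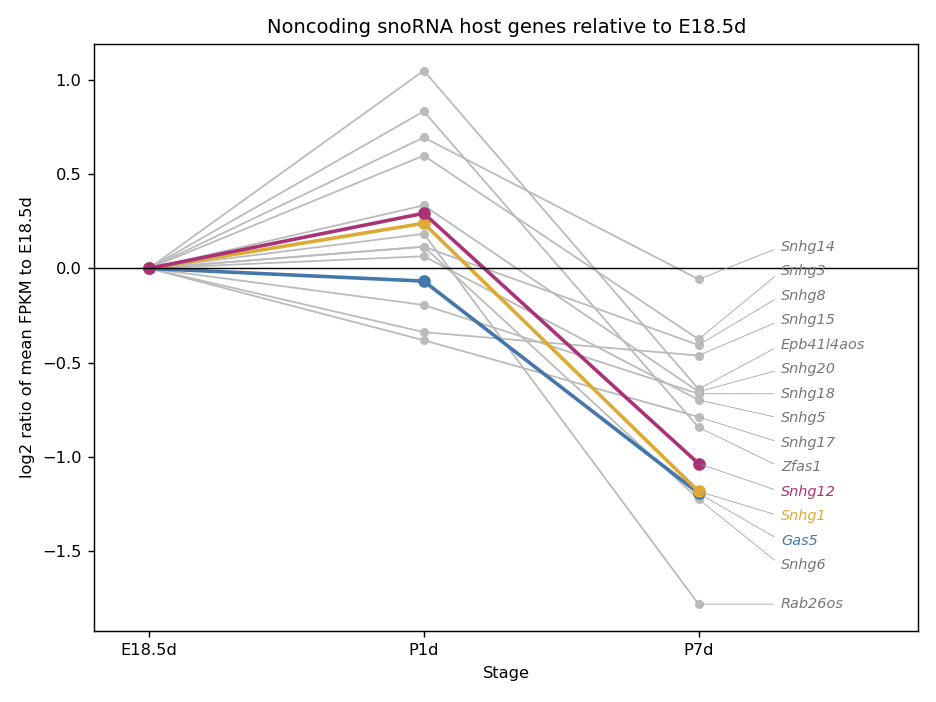
log2 ratio of the mean FPKM at each stage to the mean at E18.5d (vertical axis) for *Gas5*, *Snhg1* and *Snhg12* (coloured) and the 12 other tested snoRNA host genes (grey). *Rab26os* ends lowest at P7d and *Snhg14* nearest to its E18.5d level, and *Epb41l4aos* and *Zfas1* peak at P1d.

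Genes of proteins that act with these RNAs were listed next. Of 14 core and assembly proteins of small nucleolar ribonucleoproteins, the particles that snoRNAs form, 13 were lower at P1d than at E18.5d (median -0.62), with *Nop58*, a box C/D core protein, at -0.99 ± 0.10 and *Ruvbl2*, an assembly ATPase, at -0.86 ± 0.09. Of all genes 27.6% were lower there, and by median of ratios 22.9%, beside 11 of the 14. Thereafter 1 was higher (*Ruvbl2*, 0.27) and 2 were lower (*Nufip1*, -0.65, and *Nhp2*, -0.20) at P7d against P1d, or 2 and 1 by median of ratios. At P7d against E18.5d, 13 were lower, *Nop58* (-0.93) and *Gar1*, a box H/ACA core protein (-0.80), the most with hearts apart. In that comparison 36.9% of all genes were lower, and by median of ratios 20.9%, beside 11 of the 14. Of 17 nonsense-mediated decay factors, 2 were higher and 9 lower at P1d (2 and 7 by median of ratios). There *Upf1*, the central helicase, fell by 0.60 ± 0.06 on the log2 scale and *Smg6*, the endonuclease of the pathway, rose by 0.22. At P7d against P1d, 1 was higher (*Upf1*, 0.41 ± 0.06) and 7 were lower (2 and 6 by median of ratios), led by *Smg8* (-0.46) and *Smg1*, a kinase that acts on *Upf1* (-0.43). At P7d against E18.5d, 0 were higher and 12 lower (0 and 8 by median of ratios), with *Magohb* at -0.63 and *Etf1* at -0.59. *Upf1* was at 17.4, 11.1 and 15.1 FPKM in the 3 stages.

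Among 19 paraspeckle proteins, 1 was higher and 10 lower at P1d against E18.5d, 1 higher and 11 lower at P7d against P1d, and 0 higher and 15 lower at P7d against E18.5d (median -0.49), while *Neat1* was higher at both postnatal stages. By median of ratios these counts were 2 and 8, 3 and 5, and 0 and 11. *Sfpq*, which binds and stabilizes *Neat1*, had means of 125, 126 and 79.0 FPKM (log2 change -0.66 ± 0.08 at P7d against P1d, limma adjusted p = 0.000189). *Tardbp* (-0.72) and *Rbm14* (-0.80) led the falls at P1d, and *Taf15* (-0.82) and *Nudt21* (-0.73) those from E18.5d to P7d. *Zc3h6* was the gene that rose at P1d (0.67), and *Smarca4* rose from P1d to P7d (0.19). For all genes the share called lower at P7d against E18.5d was 36.9%.

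Of 20 nuclear speckle and splicing proteins, 2 rose and 11 fell from E18.5d to P1d. *Srsf5* rose (130 to 282 FPKM, 1.11 ± 0.07), as did *Srsf10* (0.28), while *Srsf7* (28.3 to 10.9 FPKM, -1.305 ± 0.10) and *Tra2a* (-1.20 ± 0.07) fell, with limma adjusted p between 4.42e-06 and 0.00471 for the 4. At P7d against P1d, 4 were higher, among them *Srsf7* (0.51) and *Srsf1* (0.48), and 7 lower, among them *Srsf5* (-0.63) and *Srsf10* (-0.56). *Srsf5*, like *Malat1*, was highest at P1d. At P7d against E18.5d, 1 was higher (*Srsf5*) and 15 lower. By median of ratios the last 2 comparisons gave 5 and 5, and 2 and 9.

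For *Mir17hg*, all 8 listed regulators were tested. *Myc*, which is known to bind its promoter, was at 8.25, 8.92 and 9.33 FPKM at E18.5d, 9.88, 13.8 and 8.76 FPKM at P1d, and 3.02, 3.39 and 3.83 FPKM at P7d. Its hearts overlapped between the first 2 stages and were apart at P7d, as those of *Mir17hg* were, with a change of -1.40 ± 0.14 from P1d to P7d (limma adjusted p = 9.56e-05). *Mycn*, its relative, had another course: means of 6.67 ± 0.18, 1.42 ± 0.10 and 4.42 ± 0.48 FPKM over the 3 stages. *E2f1*, a cell cycle activator that is both a regulator and a target of the cluster, went the same way, 7.71, 1.55 and 4.51 FPKM. For both, the fall to P1d and the rise to P7d passed the test (limma adjusted p between 2.28e-06 and 0.000106).

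The remaining regulators changed less. *E2f2* was lower at P1d (-0.50). *E2f3* was at 6.27 to 6.56 FPKM at E18.5d and at 3.54 to 4.17 FPKM at P1d, with hearts apart, but passed in no comparison. The fit shares its spread over the stages, and P7d replicate 3 was at 10.2 FPKM against 4.21 and 4.77 FPKM in the other P7d hearts. *Max*, the partner of *Myc*, was lower at P7d than at P1d (-0.41). *Stat3* rose from 42.3 to 57.9 to 71.8 FPKM, and both steps passed the test, though P1d and P7d hearts overlapped. *Tfap4* was highest at P1d (2.18 FPKM, against 1.46 at E18.5d and 1.49 at P7d). In counts, 2 were higher and 3 lower at P1d, 3 higher and 3 lower at P7d against P1d, and 1 higher and 4 lower at P7d against E18.5d (2 and 3, 4 and 2, and 1 and 3 by median of ratios). Proliferation markers summed to 493 to 518 FPKM at E18.5d, then to 116 to 158 and to 224 to 262, and 8 of 10 rose from P1d to P7d, the interval in which *Mir17hg* fell. How far the number of cycling cells bears on *Mir17hg* was not tested.

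**Figure D4:**
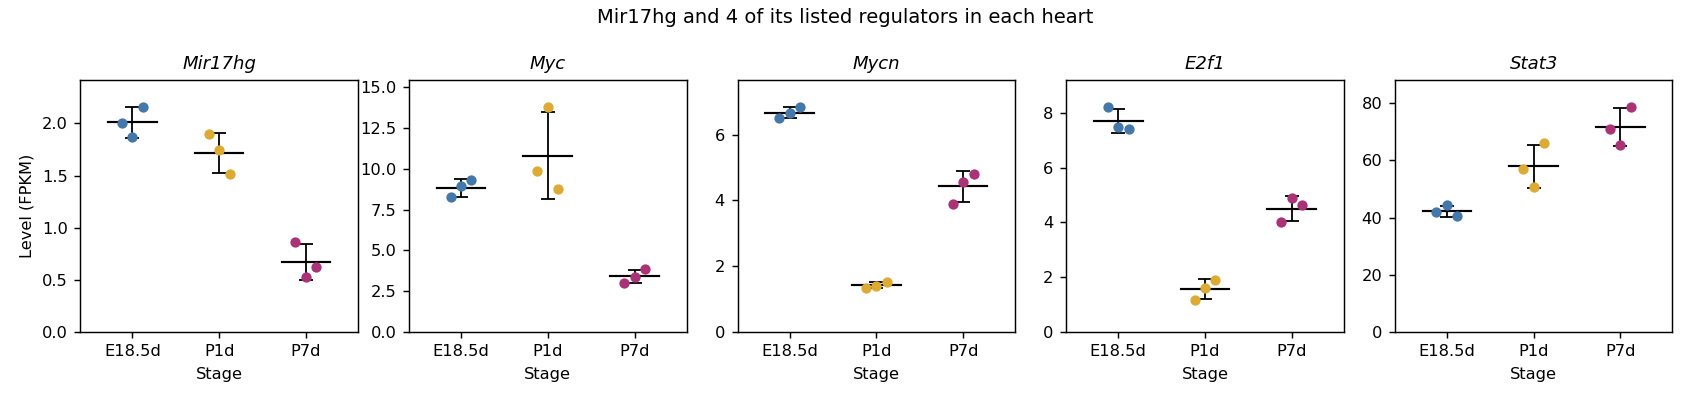
FPKM (vertical axis, linear from 0, scaled separately in each panel) of *Mir17hg* and of *Myc*, *Mycn*, *E2f1* and *Stat3* by stage. Points are hearts, 3 per stage, horizontal lines are means and bars are 1 SD. *Myc* and *Mir17hg* were lowest at P7d, *Mycn* and *E2f1* were lowest at P1d, and *Stat3* was lowest at E18.5d.

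Well known targets of the miR-17-92 microRNAs gave 16 tested genes. At P1d against E18.5d, 8 were higher and 3 lower, at P7d against P1d 2 were higher and 7 lower, and at P7d against E18.5d 2 were higher and 2 lower. By median of ratios they were 9 and 2, 3 and 6, and 4 and 1. *Bcl2l11*, a pro-apoptotic gene, was at 12.8, 27.7 and 15.6 FPKM, and *Ccn2*, a matrix gene, at 71.3, 258 and 70.7 FPKM, both highest at P1d (limma adjusted p = 0.000198 and 0.000323 for the rise). *Cdkn1a*, a cell cycle inhibitor, rose from E18.5d to P7d (0.44), as did the receptor *Tgfbr2* (0.23). The median at P7d against E18.5d was -0.08, beside -0.17 for all genes.

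Other genes that carry microRNAs gave 11 tested hosts, of which 7 rose and 4 fell from E18.5d to P1d. *Mir22hg* rose from E18.5d to 8.91 FPKM at P1d and was then at 6.25 FPKM (1.42 ± 0.08 at P1d, limma adjusted p = 3.26e-06). *Mcm7*, whose intron holds the miR-106b-25 cluster, a relative of miR-17-92, was at 53.6, 24.8 and 34.0 FPKM, lower at P1d and higher again at P7d, unlike *Mir17hg*. *Myh6* and *Myh7*, the cardiac myosin genes that carry miR-208a and miR-208b, moved apart, from 3220 to 6740 to 8320 FPKM and from 3560 to 1980 to 98.6 FPKM. At P7d against P1d, 2 of the hosts were higher and 5 lower, and at P7d against E18.5d 3 were higher and 4 lower (3 and 4, and 4 and 3, by median of ratios).

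Other named long noncoding RNAs of the heart or of chromatin gave 15 tested genes of 27. At P1d against E18.5d, 4 were higher and 5 lower, at P7d against P1d 1 was higher and 5 lower, and at P7d against E18.5d 3 were higher and 6 lower. By median of ratios these were 5 and 3, 2 and 2, and 4 and 6. *Mhrt* rose to 8.32 FPKM at P1d and 17.4 FPKM at P7d, and lies antisense to *Myh7*, from which reads cannot be told apart without strand. *Kcnq1ot1*, which silences an imprinted domain, fell from 4.60 to 2.76 FPKM at P1d, as did *Dubr* (-1.02) and *Ftx* (-0.65). *Lncpint* was at 2.91 FPKM at P1d against 0.583 and 0.923 FPKM before and after. *Carmn*, a cardiac mesoderm RNA, fell at each step (21.5, 17.4 and 13.5 FPKM), with both single steps uncalled by median of ratios (limma adjusted p = 0.0876 and 0.0856).

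Of 17 tested genes that lie beside the members, 2 were higher and 4 lower at P1d, 3 and 2 at P7d against P1d, and 3 and 4 at P7d against E18.5d (6 and 3 by median of ratios). *Slc3a2*, an amino acid transporter subunit 106 bases from *Snhg1* on the opposite strand, was at 23.1, 28.7 and 20.7 FPKM, with changes of 0.30 at P1d and -0.45 from P1d to P7d that both passed the test. *Trnau1ap*, 739 bases from *Snhg12*, had a change of -0.49 ± 0.05 from P1d to P7d (limma adjusted p = 9.6e-05), beside -1.18 for *Snhg12*. *Zbtb37*, whose span covers *Gas5* on the opposite strand without shared exon bases, was at 7.80 to 13.6 FPKM in all hearts. *Frmd8*, 4224 bases from *Neat1*, was at 3.94 to 5.43 FPKM in all hearts. *Gpc5*, the next protein-coding gene beyond *Mir17hg*, was at 0.05 FPKM or less.

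The genes most like each RNA over the 9 hearts, by Pearson correlation of log2(FPKM + 1), are given as a description, since all hearts share the 3 stages. For *Gas5* they were *Capn6*, *Prr15* and the ribosomal protein gene *Rpl31* (all r = 0.993). For *Snhg12* they were *Jph1* (0.989) and the ribosomal protein genes *Rps19* (0.988) and *Rpl41* (0.986), and for *Snhg1* they were *Dynlt1a* (0.99), *Mrpl24* (0.988) and *Airn* (0.987). *Mir17hg* was most like *Cct4* (0.991), *Myh7* (0.991) and *Gm26621* (0.99), *Tug1* like *Kcnq1ot1* (0.992), *Dnajc13* and *Napepld* (both 0.99). *Neat1* was most like *Cnst* (0.985), the mitochondrially encoded *mt-Co1* (0.98) and *2900026A02Rik* (0.973), and *Malat1* like *Gm44022* (0.987), *Iscu* (0.985) and *Fam117b* (0.982).

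The hearts that stand apart were then set aside. With *Xist* as a covariate, 13 of the 14 calls of the members remained, all but that of *Malat1* at P1d. In the 5 hearts without *Xist*, which leave 1 heart at E18.5d and 1 at P7d assumed to vary like the P1d hearts, all 14 kept their direction and 1 remained called (*Gas5* at P7d against P1d). In the 6 hearts without airway genes, which leave 1 heart at E18.5d and 2 at P1d, all 14 kept their direction and 11 remained called. The calls lost there were *Malat1* (0.18) and *Neat1* (0.92) at P1d and *Snhg12* (-0.89) at P7d against E18.5d, with limma adjusted p = 0.358, 0.0621 and 0.059.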

How the data were processed

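RNA of 9 mouse hearts was sequenced after library preparation from total RNA with a NEBNext Ultra kit. The authors deposited FPKM values with 2 decimals, 1 column per heart, and no counts. The submitters' processing notes name STAR and GRCm38/mm10, and the counting tool, the annotation and the use of strand are not given in the sources used here. Of the 48820 identifiers, 48144 were matched to GENCODE M21 for names and positions, and 4 of the 8 members had the same identifier version. All columns belonged to a sample, samples were grouped by the labelled stage, and no heart was left out.

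For genes averaging 1 FPKM or more, log2(FPKM + 1) was modelled by stage, with no covariate, in limma 3.58.1 under R 4.3.3 (lmFit and contrasts.fit, then eBayes with its trend option). Benjamini-Hochberg adjustment ran over the 13618 genes, with a threshold of 0.05 on the adjusted p. Fold changes are on that scale and understate changes of low genes. The labels call the hearts biological replicates. The fit was tested on simulated data with changes placed at P7d.

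Depth was read from low FPKM values of genes of 450 to 1000 bases as the step that makes most values whole fragments. A number of bases taken off the gene length was fitted with it, 296 to 328 per heart. Within 0.15 of a fragment, 90.5% to 93.6% were whole. At the median of the depths and lengths tried, 28.1% to 29.0% were. A gene with 3 fragments marks the lowest level that was read.

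The members and the 18 context lists were chosen with earlier results of these data known. Named were all members, from each list and comparison up to 2 called genes a direction (those that changed most with hearts apart), all regulators of *Mir17hg*, neighbours, and the 3 genes most correlated with each member. The genes outside that rule (*Snhg3*, *Snhg14*, *Snhg15*, *Snhg17* and *Carmn*) were chosen after their values were seen, and a few genes that the rule names are not reported here. Sequences came from GENCODE M21 transcripts and from RefSeq (GRCm38.p6), which held a start for 7 of the 8. Alternatives were the pseudocount, the filter, 5 rescalings, eBayes without trend, only the stages compared, the replicate block, an *Xist* covariate, a fold limit and leaving out each heart, and, chosen after seeing the data, the hearts without *Xist* or airway genes. Figures were drawn with matplotlib 3.10.9 in Python 3.11.15.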

Additional observations from a re-analysis of the deposited data

How the results depend on the processing

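Every one of the 14 calls of the members kept its direction under each alternative that could fit it (*Mir17hg* could not be fitted at a mean of at least 5 FPKM). The causes of the changes below were not tested. Values that turned sign were those of differences that had not passed the test: *Malat1* at P7d against E18.5d (0.065 with equal sums over protein-coding nuclear genes, 0.078 by median of ratios), *Tug1* at P7d against P1d (0.0035 with equal sums over protein-coding nuclear genes) and *Gas5* at P1d against E18.5d (0.00048 by median of ratios). *Miat*, below the filter, passed in no comparison when no filter was used (limma adjusted p = 0.659, 0.16 and 0.332), and its values stand for roughly 3 to 49 fragments.

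At P1d against E18.5d, the count of members called higher went from 2 to 1 without a filter, with equal sums over all genes or without 5 structural RNAs, by quantile normalization, with only the compared stages, with the *Xist* covariate and with an absolute log2 change of 1 or more. It was 0 in the 5 hearts without *Xist* and in the 6 without airway genes, and 1 to 2 leaving out single hearts. The count called lower was 0 with the fold limit and in the 5 hearts. At P7d against P1d, the count called higher went from 0 to 1 under 4 rescalings and was 0 to 1 leaving out single hearts. The count called lower was 3 with the fold limit and 1 in the 5 hearts. At P7d against E18.5d, the count called higher was 0 in the 5 hearts, and that called lower was 2 with the fold limit and 0 in the 5 hearts.

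Of the 148 genes tested from the context lists, without the marker lists, 93, 75 and 95 were called in the 3 comparisons. With the fold limit these were 13, 12 and 6, in the 5 hearts 14, 3 and 2, and in the 6 hearts 40, 49 and 60, and equal sums over all genes gave 42 at P7d against P1d. Of the long noncoding genes, 235, 250 and 237 were called. Without a filter these were 462, 391 and 444, at a mean of at least 5 FPKM 67, 82 and 74, and with the fold limit 42, 50 and 44. At P7d against P1d, equal sums over all genes gave 163 and the *Xist* covariate 165.

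Same-numbered hearts of different stages had deviations that correlated at -0.055 to 0.11 over 9 pairs, so the replicate numbers were not taken to pair the hearts. With the replicate block, *Neat1* was called higher at P7d against P1d (limma adjusted p = 0.0186, range over the alternatives 0.0186 to 0.262), which took that count from 0 to 1, and the block ended none of the 14 calls.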

Other observations

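Ribosomal protein genes, which appeared among the genes most like *Gas5* and *Snhg12*, were counted after those values had been seen. Of 80 tested, 77 fell and 1 rose from P1d to P7d, with a median log2 change of -0.64, and 6 rose and 15 fell from E18.5d to P1d. From E18.5d to P7d, 78 fell and 1 rose.

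Genes whose RefSeq start opens with at least 5 C or T in a row were counted in the same way. Of 515 such genes tested, 178 fell from P1d to P7d (34.6%), beside 29.1% of the 9277 without such a run. Without the ribosomal protein genes the share was 32.7% of 499. Of the 60 ribosomal protein genes in this count, only 16 had such a run, and 93.8% of these fell, beside 95.0% of the 60. The run thus did not mark out the ribosomal protein genes. No test of these differences was made.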
